A study of Mus musculus with 7 samples.

Results

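Of the 35976 genes in the count table, 9 genes of retinoid handling were followed by symbol: the binding protein gene Rlbp1, the oxidation and reduction enzymes Rdh5, Rdh10, Dhrs3, Aldh1a1 and Aldh1a2, and the nuclear receptors Rara, Rarb and Rxra. Rlbp1 was chosen by its measured counts in the same comparison of the guides, where its unadjusted p ranked 2 of all genes tested, so its values are a description without a test. The other 8 members were listed around it by function. RNA-seq had been run on amygdala cells of male C57BL/6J mice in 7 libraries, 4 from mice with the control guide sgRosa (sgRosa26 in the genotype label) and 3 from mice with sgEgfr, a guide against the epidermal growth factor receptor gene. In both groups an adeno-associated virus carried the guide, and Cas9 was expressed from the astrocyte promoter GfaABC1D for more than 2 weeks. All mice of both groups were restrained in tubes for 7 days, fear conditioned on 1 day and given extinction sessions for 3 days, and the cells were enriched with ACSA-2 beads, which bind an astrocyte surface antigen. Neither unstressed mice nor mice without virus were among the samples, the labels give no ages, and nothing in the labels ties a library to a mouse of its own, so p-values measure only the spread between these samples.

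Retinol, the alcohol form of vitamin A, is oxidised to retinaldehyde by retinol dehydrogenases such as RDH10, and retinaldehyde is oxidised onward to retinoic acid by the ALDH1A enzymes. DHRS3 runs the first step backwards and returns retinaldehyde to retinol. Retinoic acid binds the RAR receptors, which sit on DNA as dimers with RXR receptors and switch on target genes, among them Rarb itself. RLBP1, also called CRALBP, carries the 11-cis retinoids of the visual cycle, in which RDH5 makes 11-cis retinaldehyde; outside the eye it has been found in oligodendrocytes of the optic nerve and brain.

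The libraries held 5852870 to 22579222 counts, and 3 counts stood for 0.133 to 0.513 CPM (counts scaled to a common library total), a limit that covers counting error only. Between sgRosa 3 and 4 the difference hardly exceeded sampling noise (chi-square per degree of freedom 1.04, against 14.8 to 158 in the other 20 pairs), so their summed counts entered as 1 sample, sgRosa 3+4, and each guide had 3. Egfr, the targeted gene, was at 13.3, 2.87 and 10.6 CPM with the control guide and at 10.7, 5.69 and 8.05 CPM with sgEgfr; the groups overlapped (log2 fold change -0.13, SE 0.54, edgeR adjusted p = 0.997), so its level does not check the labels. Every one of 18 astrocyte markers was detected, with a summed level of 5258 to 14060 CPM in sgRosa and 10010 to 11960 CPM in sgEgfr. Markers of myelinating oligodendrocytes summed to far more, 86310 to 125600 CPM in sgRosa and 93080 to 180300 CPM in sgEgfr, so astrocyte RNA was not the only RNA in the libraries. In such bulk samples fewer cells of a type and less RNA per cell cannot be told apart.

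A pair of upstream sequences is shown, since one belongs to the gene that was chosen for its difference and the other holds the element through which retinoic acid is known to act on its own receptor gene. Both come from RefSeq's promoter table (GRCm38.p6, the build of mm10), in which 8 of the 9 members had 1 or more windows. The element is a DR5, 2 half-sites of the form AGGTCA or AGTTCA in the same direction with 5 letters between them. The search used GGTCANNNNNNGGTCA, GGTCANNNNNNGTTCA, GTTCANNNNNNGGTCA and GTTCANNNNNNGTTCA on both strands of the 250 bases before each start, which leave the first letter of a half-site free. Any of the 4 forms was in 0.210% of the 32851 windows. Among the 15 windows of the members, only that of Rarb held one, and its half-sites are in capitals here (chr14:16575513-16575529, minus strand, bases -53 to -37 from the start, inside a longer exon annotated by GENCODE).
Rarb DR5: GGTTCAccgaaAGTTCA
The upstream stretch of Rlbp1 (chr7:79387049-79387277, minus strand) held none of these 4 paired forms, which says nothing of single half-sites, other elements or the rest of the locus. This stretch lies before the GENCODE start at 79387048 but inside the longer RefSeq span of the gene, which reaches 79392250.
Rlbp1 upstream: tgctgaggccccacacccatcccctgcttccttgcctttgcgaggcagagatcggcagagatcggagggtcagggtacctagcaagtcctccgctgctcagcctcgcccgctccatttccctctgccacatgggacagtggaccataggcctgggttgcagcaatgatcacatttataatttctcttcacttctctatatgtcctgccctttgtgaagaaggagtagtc

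Rlbp1 had levels that did not overlap between the guides, and the other 8 members had levels that did. Rlbp1 (chromosome 7, 79374870 to 79387048, GENCODE M21 on GRCm38) drew 169, 272, 95 and 67 counts under sgRosa (libraries 1 to 4) against 480, 332 and 584 under sgEgfr (libraries 1 to 3). Scaled for depth, it measured 11.9 (sgRosa 1), 14.2 (sgRosa 2) and 10.3 CPM (sgRosa 3+4) under the control guide, against 30.4, 21.7 and 25.5 CPM in sgEgfr 1, 2 and 3. All 3 sgEgfr samples thus lay above all 3 sgRosa samples. The means were 12.1 ± 1.97 and 25.9 ± 4.37 CPM (SD, n = 3 each), a log2 fold change of 1.09 (SE 0.22), or 2.13-fold. Since this difference chose the gene, no p is given for it here, and no gene of the table passed the threshold in this fit. The value was 0.96 without sgEgfr 1 and 1.22 without sgRosa 2, the lowest and highest with 1 library left out, and 0.99 without sgRosa 3 and 4.

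**Figure D1:**
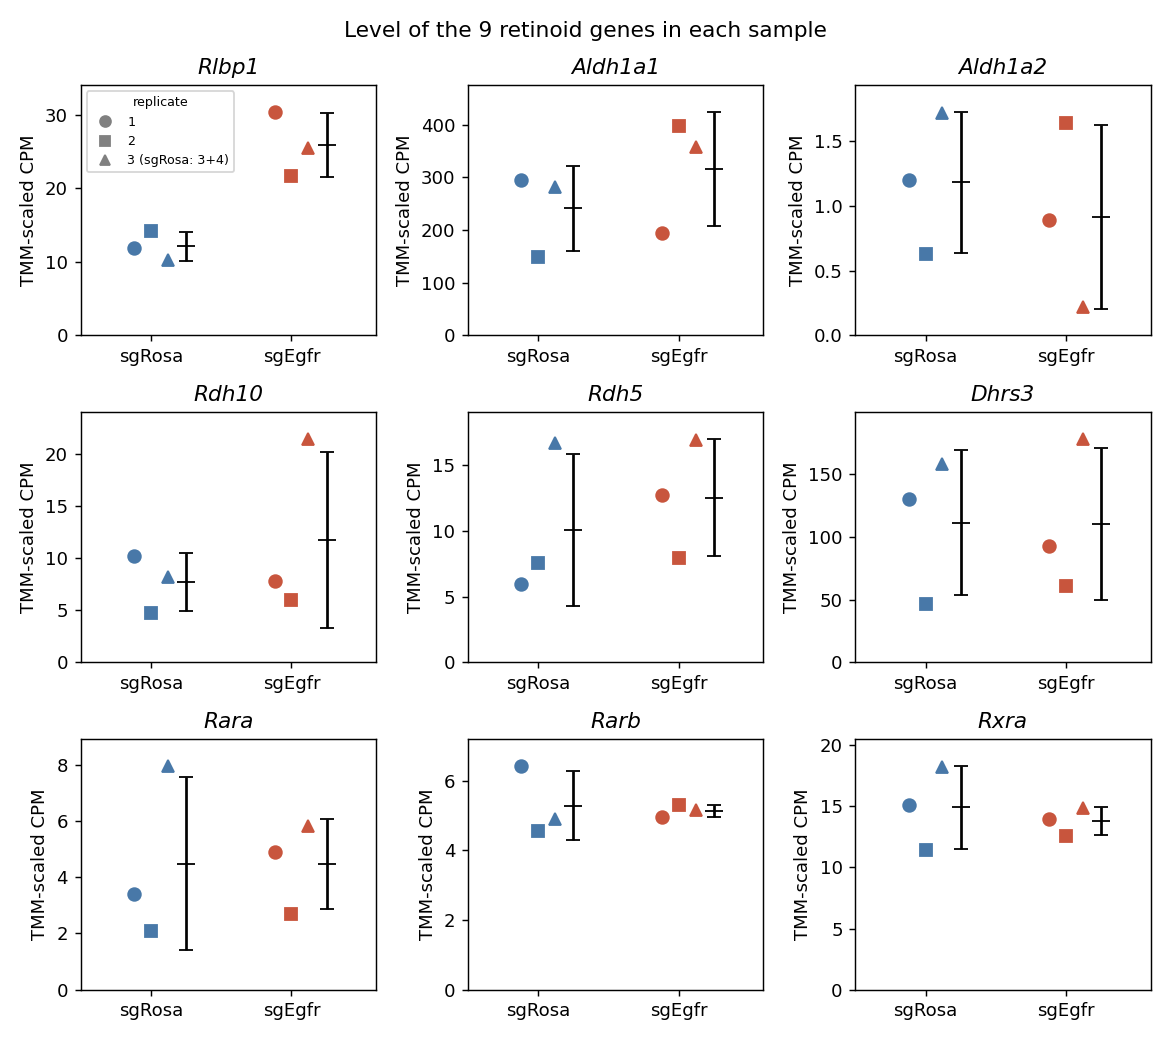
Level of each member in TMM-scaled CPM (linear vertical axes from 0, one scale per gene) in the sgRosa (blue) and sgEgfr (red) samples; symbols mark the replicate number and the bars the mean ± SD of 3 samples. Rlbp1 is the gene whose points do not overlap, at 10.3 to 14.2 CPM against 21.7 to 30.4 CPM, while the points of the other 8 genes do.

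Of all 14936 genes tested, 0 were called higher (0%) and 0 lower (0%) at an edgeR adjusted p under 0.05, and 401 had an unadjusted p under 0.05, 1.31% of all genes higher and 1.37% lower. DESeq2 called 0 with 500 at an unadjusted p under 0.05, and limma-voom called 0 with 418. All 9 members passed the filter on low counts, and 0 of the 8 members other than Rlbp1 were called or had an unadjusted p under 0.05. CPM ranges that did not overlap were found in 0 of these 8, where 7.61% of all genes tested had such ranges, 3.76% higher and 3.85% lower. Of the 8, 3 had positive log2 fold changes, with a median of -0.01, against 52.9% of all genes tested and a median of 0.02. A p that misses the threshold does not show equal levels, and the intervals below give the sizes these samples allow.

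Of the enzymes that make retinaldehyde, Rdh10, the main retinol dehydrogenase of the body's retinoic acid synthesis (chromosome 1, 16105774 to 16133734), measured 10.2 (sgRosa 1), 4.76 (sgRosa 2) and 8.20 CPM (sgRosa 3+4) under the control guide, against 7.80, 5.96 and 21.4 CPM in sgEgfr 1, 2 and 3. One sample, sgEgfr 3, was high, and the other 5 overlapped. The fit gave a log2 difference of 0.61 between the guides (SE 0.53; -0.63 to 1.84 is the 95% confidence interval, as for the intervals that follow; edgeR adjusted p = 0.997), and without sgEgfr 3 it was -0.17. Rdh5, the 11-cis retinol dehydrogenase (chromosome 10, 128913593 to 128922888), measured 6.00 (sgRosa 1), 7.58 (sgRosa 2) and 16.7 CPM (sgRosa 3+4) under the control guide, against 12.7, 7.99 and 16.9 CPM in sgEgfr 1, 2 and 3. The groups overlapped, with sgRosa 3+4 and sgEgfr 3 nearly level at the top, and the log2 fold change was 0.31 (SE 0.45, interval -0.74 to 1.37, edgeR adjusted p = 0.997). It was 0.04 without sgEgfr 3, 0.05 without sgRosa 1 and 0.89 without sgRosa 3 and 4. Exons of Bloc1s1 on the same strand cover 25.6% of the exon bases of Rdh5, so its counts depend on how shared reads were assigned.

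Dhrs3, which turns retinaldehyde back into retinol (chromosome 4, 144892827 to 144928209), spread widely within each guide, its highest sample at 3.84 times its lowest. It measured 130 (sgRosa 1), 46.4 (sgRosa 2) and 158 CPM (sgRosa 3+4) under the control guide, against 92.7, 60.9 and 178 CPM in sgEgfr 1, 2 and 3. Samples of each guide lay at both ends, and the log2 fold change was -0.01 (SE 0.51, interval -1.20 to 1.18, edgeR adjusted p = 0.998), -0.54 without sgEgfr 3 and 0.33 without sgRosa 3 and 4.

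Aldh1a1 and Aldh1a2 oxidise retinaldehyde to retinoic acid. Aldh1a1 (chromosome 19, 20492715 to 20643465) measured 295 (sgRosa 1), 149 (sgRosa 2) and 282 CPM (sgRosa 3+4) under the control guide, against 194, 398 and 357 CPM in sgEgfr 1, 2 and 3. In sgEgfr 2 and 3 it lay above all sgRosa samples, and in sgEgfr 1 below 2 of them. The log2 fold change was 0.39 (SE 0.35, interval -0.42 to 1.20, edgeR adjusted p = 0.997), 0.13 without sgRosa 2, the lowest sample, and 0.17 without sgEgfr 2, the highest. Aldh1a2 (chromosome 9, 71215789 to 71296243), the enzyme typical of meninges, had low counts, and sgEgfr 3 came nearest to the limit of 3 counts. It drew 17, 12, 16 and 11 counts under sgRosa (libraries 1 to 4) against 14, 25 and 5 under sgEgfr (libraries 1 to 3). Its levels overlapped, at 1.20, 0.627 and 1.72 CPM with the control guide against 0.888, 1.64 and 0.219 CPM with sgEgfr. The log2 fold change of -0.39 (SE 0.75, interval -2.14 to 1.37, edgeR adjusted p = 0.997) was 0.10 without sgEgfr 3 and -1.13 without sgEgfr 2.

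Of the receptors, Rarb and Rxra were the most even of the 9 members over the samples, and Rara was not. Rarb, receptor and textbook target of retinoic acid in 1 gene (chromosome 14, 16430839 to 16819156), measured 6.42 (sgRosa 1), 4.55 (sgRosa 2) and 4.90 CPM (sgRosa 3+4) under the control guide, against 4.95, 5.30 and 5.16 CPM in sgEgfr 1, 2 and 3. Its highest sample was 1.41 times its lowest, the narrowest span of the 9, and its log2 fold change was -0.04 (SE 0.29, interval -0.72 to 0.63, edgeR adjusted p = 0.997). As to overlap, exons of Top2b on the other strand cover 34.1% of its exon bases, and the strand setting of the counting is not known here. Rxra, the shared partner of many nuclear receptors (chromosome 2, 27676440 to 27762957), measured 15.1 (sgRosa 1), 11.4 (sgRosa 2) and 18.2 CPM (sgRosa 3+4) under the control guide, against 13.95, 12.6 and 14.8 CPM in sgEgfr 1, 2 and 3. All 3 sgEgfr samples fell inside the sgRosa range, with a log2 fold change of -0.11 (SE 0.24, interval -0.67 to 0.45, edgeR adjusted p = 0.997). Rara (chromosome 11, 98927818 to 98974942) measured 3.39 (sgRosa 1), 2.09 (sgRosa 2) and 7.95 CPM (sgRosa 3+4) under the control guide, against 4.88, 2.68 and 5.81 CPM in sgEgfr 1, 2 and 3. Its sgEgfr samples also lay inside the sgRosa range, and its log2 fold change was -0.00 (SE 0.55, interval -1.29 to 1.29, edgeR adjusted p = 0.9995), 0.71 without sgRosa 3 and 4.

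**Figure D2:**
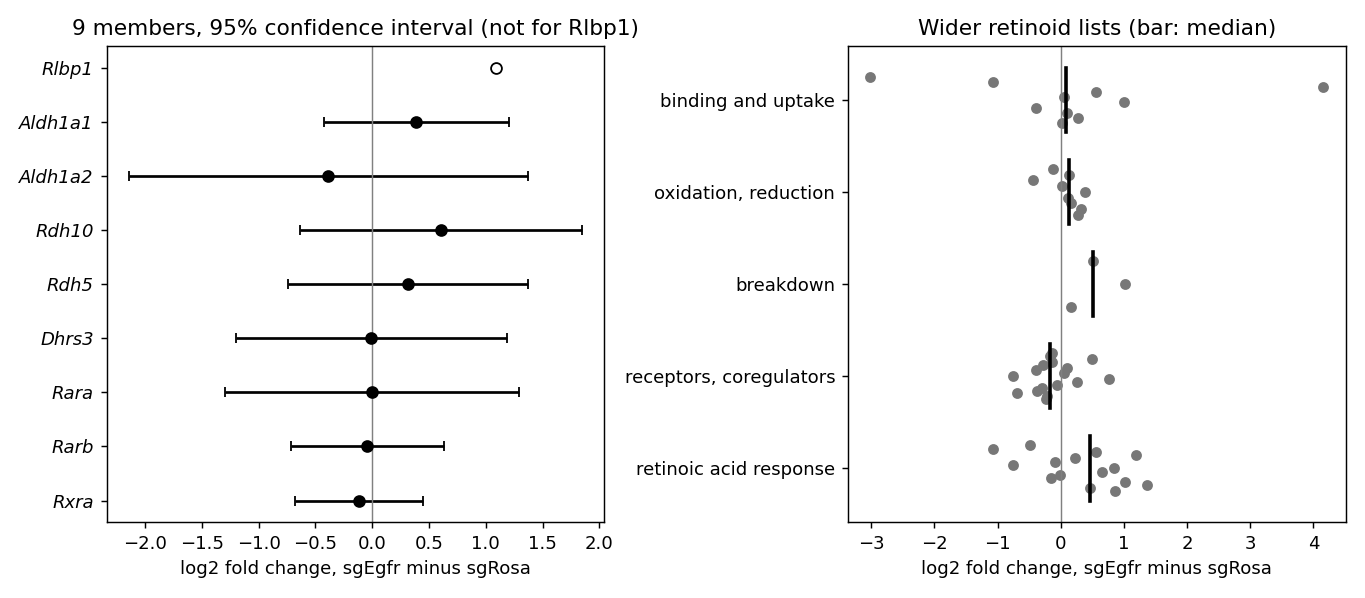
Left, log2 fold change of each member (sgEgfr minus sgRosa, point) with its 95% confidence interval (bar); Rlbp1, the gene chosen for its difference, is an open point without one. Right, the same quantity for each tested gene of the 5 wider retinoid lists (points; a gene in 2 lists appears in both) with the median of each list (black bar). The intervals of the other 8 members include 0, and the points of the wider lists lie on both sides of 0 in 4 of the 5 lists and above 0 in the breakdown list.

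Per kilobase of exon (GENCODE M21, which may differ from the annotation behind the counts), Aldh1a1 and Dhrs3 had the highest levels, with medians over the 6 samples of 58.4 and 38.1 CPM per kilobase. Their ranges, 30.1 to 80.7 and 15.8 to 60.8, overlapped with each other and with no other member. Rlbp1 followed at 6.08 (3.49 to 10.3), then Rdh5 at 3.69, Rxra at 2.63, Rdh10 at 1.92, Rarb at 0.960, Rara at 0.947 and Aldh1a2 at 0.461 CPM per kilobase. From Rlbp1 down, each gene's range overlapped that of the next, so the order of neighbours is within their spread. The per-kilobase median of Rlbp1 was 4.04 over the sgRosa samples and 8.64 over the sgEgfr samples.

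The members did not share 1 pattern over the samples. In sgRosa 2, 6 of the 9 had their lowest value, while Rlbp1 had its highest value of the sgRosa samples there. As log2 CPM minus its 6-sample mean, Dhrs3 was at -1.10 in sgRosa 2 and at 0.67 and 0.84 in sgRosa 3+4 and sgEgfr 3. Rara was likewise low in sgRosa 2 (-0.91) and high in these 2 samples (0.95 and 0.51). Rlbp1 was at -0.30 in sgRosa 2, at -0.77 in sgRosa 3+4 and at 0.54 in sgEgfr 3. Set against the mean log2 CPM of the other 8 members in the same sample, Rlbp1 was at -0.17, 0.78 and -0.74 in sgRosa 1, 2 and 3+4 and at 1.27, 0.88 and 0.71 in sgEgfr 1 to 3, so on this relative scale sgRosa 2 lay among the sgEgfr samples.

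**Figure D3:**
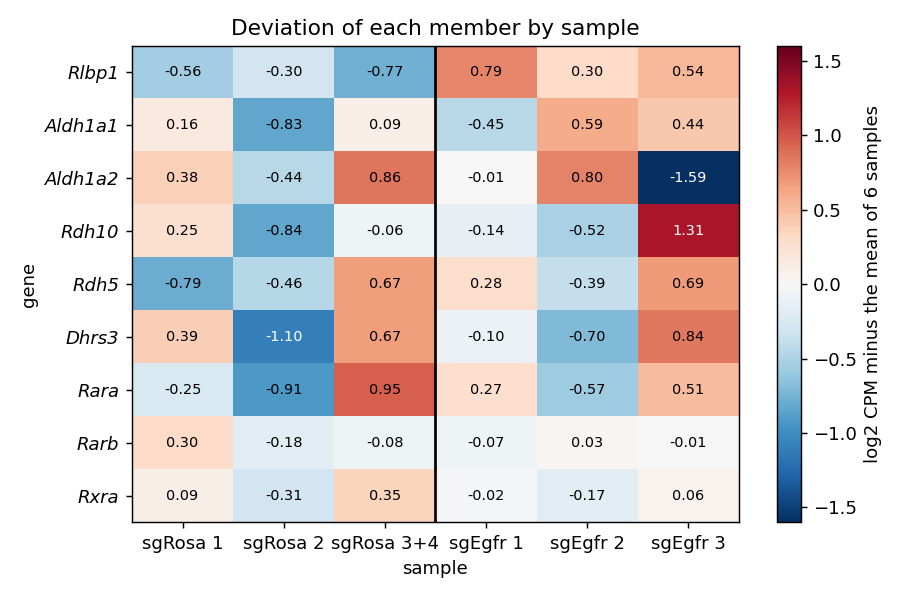
Log2 CPM of each member (rows) in each sample (columns) minus its mean over the 6 samples; red is above and blue below that mean, and the line divides sgRosa from sgEgfr. Rlbp1 is below its mean in the 3 sgRosa samples (-0.30 to -0.77) and above it in the 3 sgEgfr samples (0.30 to 0.79), while Dhrs3 and Rara are low in sgRosa 2 and sgEgfr 2 and high in sgRosa 3+4 and sgEgfr 3.

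Which cells the transcripts came from cannot be read from bulk counts, so the samples' marker levels are set beside the members. As a measure of likeness, the log2 CPM of each gene was centred on the mean of its guide and correlated with that of the member over the 6 samples; within a sample all genes share its library, depth and cell makeup. With Rlbp1, 12 of 15 markers of oligodendrocyte precursors had positive values and their median was 0.69, where the median over all other genes tested was -0.00. For astrocyte markers 0 of 18 were positive, with a median of -0.52, and for myelinating oligodendrocytes 13 of 16 were positive with a median of 0.14. Fibroblast and meningeal markers had 10 of 11 positive and a median of 0.39; that list shares Pdgfra with the precursor list. The likeness of Rlbp1 to the other 8 members was positive for 0 of 8, with a median of -0.32. Without centring on the guides, precursor markers were again positive (13 of 15, median 0.60), but astrocyte markers had 13 of 18 positive and a median of 0.08, and the other members 3 of 8 and -0.05. On that scale endothelial (0.56) and heat shock and handling genes (0.55) had medians near that of the precursor markers.

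Dhrs3 had a median likeness of 0.79 to astrocyte markers (17 of 18 positive), 0.92 to ependymal markers (12 of 12), -0.74 to precursor markers and -0.93 to markers of myelinating oligodendrocytes (0 of 16 positive). Rxra (0.89 and 0.84), Rara (0.78 and 0.90), Rdh5 (0.52 and 0.84) and Rdh10 (0.47 and 0.84) also had positive medians for astrocyte and ependymal markers. Aldh1a1 had 0.50 for neuron markers (11 of 15 positive), 0.49 for astrocyte markers (18 of 18) and -0.82 for precursor markers, and Rarb stood with neuron (0.83) and endothelial markers (0.73). Aldh1a2, at low counts, had 0.08 for fibroblast and meningeal markers (6 of 11 positive), 0.57 for microglia markers (13 of 14) and 0.39 for astrocyte markers (17 of 18). These values describe 6 samples only.

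**Figure D4:**
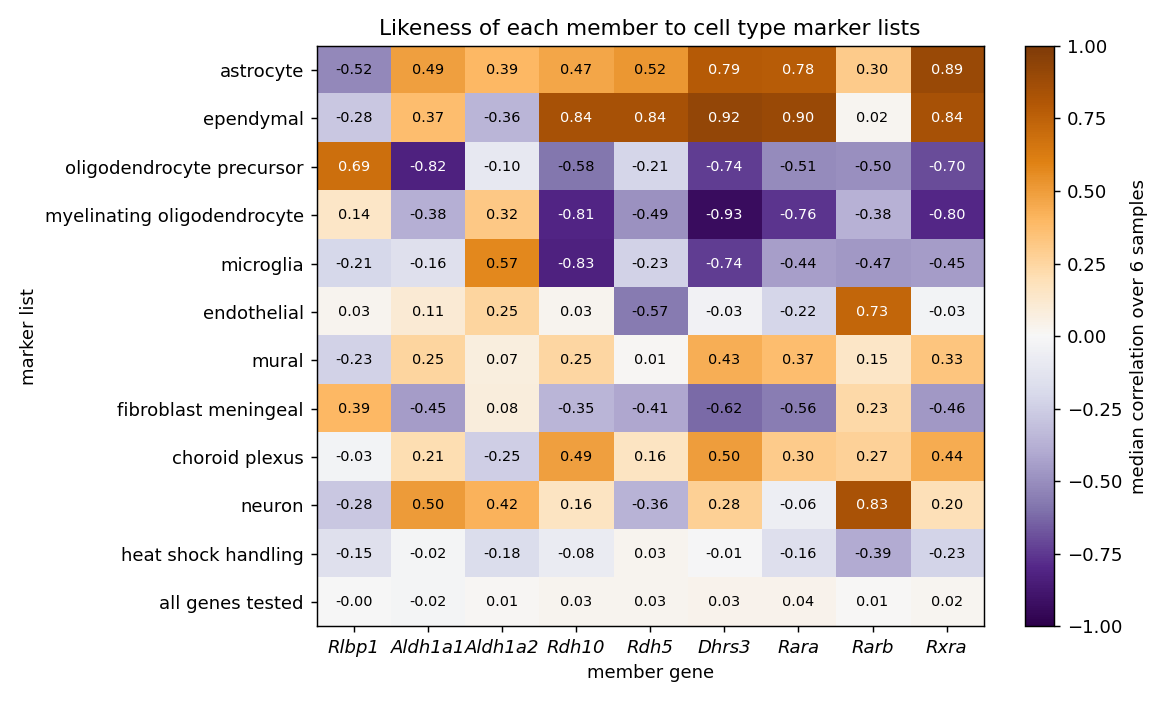
Median correlation of each member (columns) with the genes of each marker list (rows) over 6 samples, after the mean of each guide was subtracted; orange is positive, purple negative, and the bottom row gives all genes tested. Rlbp1 is positive with oligodendrocyte precursor markers (0.69) and negative with astrocyte markers (-0.52), and Dhrs3 shows the opposite signs (-0.74 and 0.79).

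The precursor markers, 15 of 15 detected with Olig1, Bcan (which astrocytes also make) and Enpp6 the most abundant, summed to 1523, 1951 and 1929 CPM in sgRosa 1, 2 and 3+4 and to 2474, 2297 and 1725 CPM in sgEgfr 1 to 3. The groups overlapped, and 12 of the 15 had positive log2 fold changes with a median of 0.33. Pdgfra, the receptor that defines precursors, was the only one of the 15 whose ranges did not overlap, at 36.3, 79.0 and 29.2 CPM with the control guide against 171, 100.3 and 91.5 CPM with sgEgfr (log2 fold change 1.33, SE 0.41, edgeR adjusted p = 0.997). Rlbp1 was chosen for its difference, so ratios of it that are apart between the guides can follow from that choice and are no test. Per 1000 CPM of the precursor markers, Rlbp1 spanned 5.34 to 7.83 CPM with the control guide and 9.46 to 14.8 CPM with sgEgfr, ranges that did not overlap. For mural markers such ranges were also apart, at 13.7 to 21.0 and 31.5 to 39.5. So were those for choroid plexus markers, at 3.41 to 3.94 and 6.56 to 11.8. For the other marker lists in full they overlapped. The choroid plexus sum is almost all Enpp2 (mean 2991 CPM), with Clic6 next at 16.1 CPM, so that ratio is in effect a ratio to Enpp2. The precursor sum is led by Olig1 and Bcan. Without its 3 most abundant markers the ranges were 24.7 to 33.1 and 38.1 to 50.4, also apart. Set against each marker alone, the ratio of Rlbp1 overlapped between the guides for 10 of the 15 and was apart, higher in sgEgfr, for 5. Per CPM of Pdgfra, Rlbp1 was at 0.328, 0.180 and 0.353 in the sgRosa samples and 0.178, 0.217 and 0.279 in the sgEgfr samples, which overlapped. The part of precursor cells in the level of Rlbp1 was not tested. With the precursor score as a covariate the log2 fold change of Rlbp1 was 0.83, and with the astrocyte score it was 1.18. These fits use the counts by which Rlbp1 was chosen and are no test of that part either. Relative to the astrocyte markers the Rlbp1 ranges did overlap, at 0.733 to 2.704 CPM per 1000 CPM in sgRosa and 2.17 to 2.55 in sgEgfr. The top of the sgRosa range was sgRosa 2, which had the lowest astrocyte sum, and the other sgRosa samples lay below the sgEgfr range. Fibroblast and meningeal markers, 12 of 12 detected, summed to 81.6 to 157 CPM in sgRosa and 163 to 250.7 CPM in sgEgfr without overlap, and 6 of 11 tested were positive. Without Pdgfra, which the precursor list shares, the sums of 52.4 to 77.6 and 71.4 to 89.7 CPM overlapped. Per 1000 CPM of this shorter list, Rlbp1 was at 168.5 to 196.6 CPM in sgRosa and 242.3 to 382.5 CPM in sgEgfr, ranges that were apart. A list of 9 retinal genes summed to 0.836 to 7.06 CPM in sgRosa and 0.262 to 11.4 CPM in sgEgfr, and 1 of the 9 genes was tested. The highest sum, in sgEgfr 3, was mainly Crx (129 counts) and Pde6b (87 counts), each with at most 4 counts in any other library. The highest sgRosa sum was mainly Rax, with 60 and 31 counts in sgRosa 3 and 4. Handling genes, the 16 heat shock and early response genes led by Fos and Jun, summed to 2190 to 3857 CPM in sgRosa and 3437 to 6536 CPM in sgEgfr, and with their score as a covariate Rlbp1 was at 1.15.

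Ependymal markers, 12 of 12 detected and led by Foxj1, summed to 78.3, 54.5 and 529 CPM in sgRosa 1, 2 and 3+4 and to 110, 48.0 and 1439 CPM in sgEgfr 1 to 3. The 2 samples with the most, sgRosa 3+4 and sgEgfr 3, were also the 2 highest for Rdh5, Dhrs3 and Rara, and the part of ependymal cells in those levels was not tested. For Rlbp1 these were the lowest sgRosa sample and the middle sgEgfr sample.

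By the likeness measure, the 5 genes nearest to Rlbp1 among 10819 at 5 CPM or more, with the guide means subtracted, were Tmem186 (0.994), Cdan1 (0.993), B4galt7 (0.993), E030024N20Rik (0.991) and Dot1l (0.990), none of which had CPM ranges apart between the guides. The 5 nearest to each other member on this scale were also at 0.988 or higher. With 6 samples and so many candidates, such values do not single out partners of Rlbp1. Without subtracting the guide means the 5 nearest to Rlbp1 were Map7d2 (0.986), Zfp446 (0.985), Tsc22d1 (0.979), Cp (0.973) and 4933427D14Rik (0.951). All 5 had higher, non-overlapping ranges in sgEgfr, as did 3.76% of all genes tested. Because Rlbp1 was chosen for its difference, this scale puts genes with the same difference first, so that count is no result of its own. The 2 sets shared no gene.

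Beyond the members, 5 lists held 83 other retinoid genes. Of 50 tested, 0 were called and 4 had an unadjusted p under 0.05, against 401 of all 14936 genes tested (1.31% higher and 1.37% lower). Log2 fold changes were positive in 29 of the 50 (58.0%, against 52.9% of all genes tested), and the median was 0.07 against 0.02. Ranges were apart in 6 of the 50, against 1136 of all 14936 genes tested (7.61%). The edgeR adjusted p was 0.997 for each tested gene named from these lists.

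Genes of retinoid binding and uptake had 7 of 10 tested positive and a median log2 fold change of 0.08. Rbp4, the plasma carrier of retinol, drew 7, 3, 2 and 2 counts under sgRosa (libraries 1 to 4) against 14, 17 and 320 under sgEgfr (libraries 1 to 3). Most of its counts were in 1 library, sgEgfr 3, and 3 of the 4 sgRosa libraries were at or under the limit of 3 counts, so the fitted log2 fold change of 4.15 (SE 1.22) is no firm size. Ttr, the transporter that choroid plexus makes and that binds RBP4 in plasma, was the reverse case, with 655 counts in sgRosa 1 and 4 to 71 counts in each of the other 6 libraries (log2 fold change -3.01, SE 1.65). Lrat, which stores retinol as esters, had 1.01 (SE 0.78). Rpe65, the isomerase of the visual cycle, had 0 to 29 counts and did not pass the filter. Nor did Rbp2 and Rbp3, which had 218 and 347 counts in sgEgfr 3 and at most 6 and 3 counts in any other library.

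Enzymes of oxidation and reduction outside the members had 7 of 9 tested positive, a median of 0.12 and a narrow span from -0.44 to 0.39. Rdh13 was at -0.44 (SE 0.34), Rdh11 at 0.39 (SE 0.29), the aldose reductase gene Akr1b3 at 0.28 (SE 0.25) and Rdh14 at 0.12 (SE 0.14). Aldh1a3, another ALDH1A enzyme, had at most 3 counts in any library. Of the breakdown list 3 of 6 genes were tested, all 3 positive. Cyp26b1, which degrades retinoic acid in the brain, measured 0.494 (sgRosa 1), 1.88 (sgRosa 2) and 0.509 CPM (sgRosa 3+4) under the control guide, against 2.28, 3.21 and 0.525 CPM in sgEgfr 1, 2 and 3, which overlapped (log2 fold change 1.02, SE 0.80). Cyp1b1 was at 0.16 and Cyp2s1 at 0.50.

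Receptors and coregulators had 5 of 17 tested positive and a median of -0.18. Nrip1, a corepressor that retinoic acid also induces, measured 49.4 (sgRosa 1), 52.3 (sgRosa 2) and 39.3 CPM (sgRosa 3+4) under the control guide, against 31.3, 18.1 and 33.7 CPM in sgEgfr 1, 2 and 3, ranges that did not overlap, with a log2 fold change of -0.76 (SE 0.25). The coactivator Ncoa3 (-0.69, SE 0.27) had ranges just apart, at 47.8 to 104.9 CPM with the control guide and 44.1 to 46.3 CPM with sgEgfr. The corepressor Ncor1 had -0.37 (SE 0.20) and the orphan receptor Nr4a2 0.77 (SE 0.43).

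Genes known to respond to retinoic acid had 9 of 15 tested positive and a median of 0.46, and the lists of uptake, breakdown and coregulators hold 4 of these 15 too. Cdkn1a, a cell cycle inhibitor that many stresses induce, measured 14.5 (sgRosa 1), 20.6 (sgRosa 2) and 27.9 CPM (sgRosa 3+4) under the control guide, against 31.0, 59.1 and 71.6 CPM in sgEgfr 1, 2 and 3 (log2 fold change 1.36, SE 0.35), ranges that did not overlap; the handling genes above, whose part was not tested, had 13 of 16 positive. Asb2 was at 0.86 (SE 0.45) and the homeobox gene Meis2 at 0.65 (SE 0.38). At the low end of the list, Cyp26a1 had counts in 1 library only (2 in sgRosa 1), and Crabp2 had at most 6 counts in any library. Rarres2, which is also an ependymal marker, reached 149 CPM in sgEgfr 3 and 58.5 CPM in sgRosa 3+4, against 6.64 to 21.5 CPM in the other samples.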

How the data were processed

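Raw counts of reads for each gene, deposited as 1 table and again as 7 per-library files with the same values, were the starting point. Per the submitters' processing notes reads were processed with featureCounts 2.0.1, STAR 2.7.5c, MultiQC 1.11, fastp 0.23.2, edgeR 3.42.4 and FastQC 0.11.9, and the build was mm10. Strand setting, annotation and multimapping rules are not given in the sources used here.

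After filterByExpr (at its minimum count of 10 and total of 15) and TMM scaling, edgeR 4.0.16 (R 4.3.3) compared 3 samples with 3 by its quasi-likelihood test, in a model of guide alone, and Benjamini-Hochberg adjustment over 14936 genes. CPM values are relative to the TMM-scaled total of these genes. Likeness used log2 CPM with a prior count of 2. The fit was tested on simulated data. Alternatives were other scalings and filters, DESeq2 1.42.0, limma-voom 3.58.1, 7 separate libraries, the replicate number as a block, marker scores as covariates, and libraries left out. Leaving out sgRosa 2 with sgEgfr 3, the ependymal and myelinating oligodendrocyte covariates, and the ratios and sums over single or fewer markers were chosen after seeing the data.

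The members and lists were chosen with earlier results of these data known. All 9 members are named, the 4 genes of each wider list with the smallest unadjusted p, and the 5 genes most like Rlbp1 on each scale. Rpe65, Rbp2, Rbp3, Aldh1a3, Cyp26a1, Crabp2 and Rarres2 were also named after their values were seen. Some items that this rule would name are not reported here. Figures were drawn with matplotlib 3.10.9.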

Additional observations from a re-analysis of the deposited data

How the results depend on the processing

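In all 26 alternatives 0 members and 0 genes were called. The log2 fold changes of Rlbp1 (0.83 to 1.23) and Aldh1a1 (0.04 to 1.08) stayed positive in 25 of 25. Other members changed sign in places. Leaving out 1 library at a time, or sgRosa 3 and 4 together, gave -1.13 to 0.0994 for Aldh1a2, -0.166 to 0.905 for Rdh10, -0.537 to 0.33 for Dhrs3, -0.346 to 0.708 for Rara, -0.142 to 0.122 for Rarb and -0.275 to 0.0575 for Rxra; Rdh5 kept its sign at 0.0369 to 0.887 (0.0369 to 0.535 for single libraries). For single libraries alone the highest was 0.264 for Dhrs3 and 0.24 for Rara. Without both sgRosa 2 and sgEgfr 3, Rdh10 was at -0.422, Rdh5 at -0.135, Dhrs3 at -0.907, Rara at -0.584, Rxra at -0.329 and Rarb at -0.143. With the oligodendrocyte precursor score as a covariate all 9 members were positive, Aldh1a2 at 0.251, Dhrs3 at 0.916, Rara at 0.599, Rarb at 0.127 and Rxra at 0.115. With the heat shock and handling score Dhrs3 was at 0.482, Rara at 0.31, Rarb at 0.192 and Rxra at 0.0745, and with the endothelial score Dhrs3 was at 0.0392 and Rara at 0.503. Dhrs3 and Rara, both near 0, also turned with the stricter filter (0.00268 and 0.0121) and limma-voom (6.7e-05 and 0.223), and Rara with RLE size factors (0.000968), no filter (0.0041) and DESeq2 (0.00232). The cause of these reversals was not tested. Same-numbered samples of the guides correlated at -0.106, 0.517 and 0.549 for replicates 1, 2 and 3, and samples of unlike number at -0.583 to 0.255. For replicates 2 and 3 the value was above every unlike-numbered one, and for replicate 1 it was not. Whether the numbers pair the samples was not tested further. With a replicate block 0 genes were called (705 at an unadjusted p under 0.05, against 401), Rlbp1 was at 1.09, Dhrs3 at 0.0264 and Rara at 0.13. With 7 separate libraries and the block, Dhrs3 and Rara were at 0.029 and 0.109. Aldh1a2 did not pass the stricter filter.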
